A study of Mus musculus with 8 samples.

Results

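Vomeronasal receptor genes with a listed H3K9me3 peak nearby were examined in mouse embryonic fibroblasts. The genes were Vmn1r2, Vmn1r3, Vmn1r238, Vmn1r66 and Vmn2r125. They were selected by the deposited H3K9me3 peak lists: each has a peak of either genotype that overlaps its body or the 10 kb on either side. Not every gene that meets this distance is among them: 8 genes of the family do, and the pseudogenes Vmn1r-ps47, Vmn2r-ps16 and Vmn1r-ps60 were not in the selection, although the pseudogene Vmn2r125 was. The listing itself is therefore how the genes were found and is given as a description, with no test. The RefSeq table of the mm10 build holds 645 genes of the Vmn1r and Vmn2r families, of which 355 are protein-coding and 290 are pseudogenes. Of the 5 genes, 4 are protein-coding, and Vmn2r125 is annotated as a pseudogene. Within 10 kb of the 5 genes lie 6 listed peaks, all in the H3K9me3 lists, at 4 separate places in the genome. These peaks are 4 of 173 in the wild-type list (2.31%) and 2 of 93 in the knockout list (2.15%).

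The cells came from C57BL/6 embryos at 14.5 days post coitum and were either wild type or Peg3 knockout. Peg3 is an imprinted gene that encodes a zinc finger DNA-binding protein. Chromatin immunoprecipitation with sequencing (ChIP-seq) gave 1 library per genotype with an antibody to H3K9me3 and 1 with an antibody to PEG3, each set against the input DNA of its genotype. Each group has 1 library, so the genotypes are compared by description alone and no test was run. All intervals are 95% intervals that cover counting error only. The labels do not give the number or sex of the embryos, nor how the knockout allele was made.

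Vomeronasal receptors are G protein-coupled receptors of the sensory neurons in the vomeronasal organ, where they detect pheromones and related cues. The Vmn1r genes encode receptors with a short extracellular end, and the Vmn2r genes encode receptors with a long extracellular domain. Each sensory neuron expresses very few of them, and fibroblasts are not known to use them. H3K9me3, histone H3 trimethylated at lysine 9, is placed by methyltransferases such as Setdb1 and Suv39h1 and marks silent chromatin, including repeats and some clustered gene families. Expression was not measured in these samples, so the silence of the receptor genes was not checked here.

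The H3K9me3 libraries kept 26295696 tags in wild type and 27289192 in knockout, and the PEG3 libraries kept 21396407 and 16986250. The H3K9me3 lists held 173 and 93 peaks, and the PEG3 lists 152 and 163. The targeted gene, Peg3, had 14 PEG3 antibody peaks within 10 kb in wild type and 20 in knockout. PEG3 antibody peaks at Peg3 were therefore not fewer in the library labelled knockout, and the presence of the protein cannot be read from peak lists. A list holds sites that passed the authors' q threshold of 0.05, so a site outside it has no measured height. Heights below are the fragments over a peak's summit, and that number per 1000000 ChIP tags kept by the caller (FPM).

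The first question was where the H3K9me3 peaks lay relative to the receptor genes. None of the 6 peaks overlapped a gene body. The distances from the peak edge to the gene ran from 1369 to 9667 bp. The listed peaks were 98 to 177 bp wide. The median width of the whole wild-type list was 161 bp and that of the knockout list 160 bp. The caller's fragment length was 97 bp for the wild-type H3K9me3 library and 98 bp for the knockout one, below the tag size of 100 bp. The narrowest peak of each list was exactly as wide as that fragment length. Listed widths thus depend on the calling, and the extent of H3K9me3 cannot be read from them.

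Vmn1r2 and Vmn1r3 are neighbours on chromosome 4 (3172083 to 3173003 and 3184385 to 3185305), with 11382 bp between them. A wild-type H3K9me3 peak at 3176864 to 3176992 lay in this interval, 3861 bp from Vmn1r2 and 7393 bp from Vmn1r3. It had 44 fragments over the summit, or 1.67 FPM (1.22 to 2.25), an 8.33-fold enrichment over input and a −log10 q of 20.6. The pair of genes thus shares 1 peak, and it was the highest of the 6. A second wild-type peak lay on the other side of Vmn1r2, at 3165180 to 3165290, 6793 bp from the gene. It had 26 fragments, or 0.989 FPM (0.646 to 1.45), and a 5.01-fold enrichment. The knockout H3K9me3 list held no peak at either site, and its nearest peak lay 90666 bp from Vmn1r2.

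Vmn1r238 lies on chromosome 18 (3122492 to 3123412). Its wild-type H3K9me3 peak, at 3115596 to 3115731, was 6761 bp away and had 13 fragments, or 0.494 FPM (0.263 to 0.845), with a 5.76-fold enrichment. This was the lowest of the 6 peaks. The knockout list, with 93 H3K9me3 peaks in all, held 1 on the whole chromosome, and that peak lay 79047 kb from the gene. The wild-type list, with 173 in all, held 4 on this chromosome.

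Vmn1r66 lies on chromosome 7 (10273828 to 10275351) and was the gene listed in knockout and not in wild type. The knockout peak at 10285018 to 10285121 was 9667 bp from it, close to the limit of the 10 kb window, and 3281 bp from the pseudogene Vmn1r-ps47. It had 24 fragments, or 0.879 FPM (0.563 to 1.31), and a 10.2-fold enrichment. The peak was thus closer to the pseudogene than to Vmn1r66. The nearest wild-type H3K9me3 peak lay 1735 kb from Vmn1r66.

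Vmn2r125, at the other end of chromosome 4 (156344272 to 156355467), was listed in both genotypes. The wild-type peak at 156356836 to 156357012 lay 1369 bp outside the annotated body, and the knockout peak at 156356892 to 156356989 lay 1425 bp outside it. The 98 bp of the knockout peak fell wholly within the 177 bp of the wild-type peak, and the summits were 8 bp apart. As 98 bp is the lowest width in the knockout list, the unequal widths are no measure of the extent of the mark. The wild-type peak had 29 fragments, or 1.10 FPM, and the knockout peak 30 fragments, or 1.10 FPM.

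**Figure D1:**
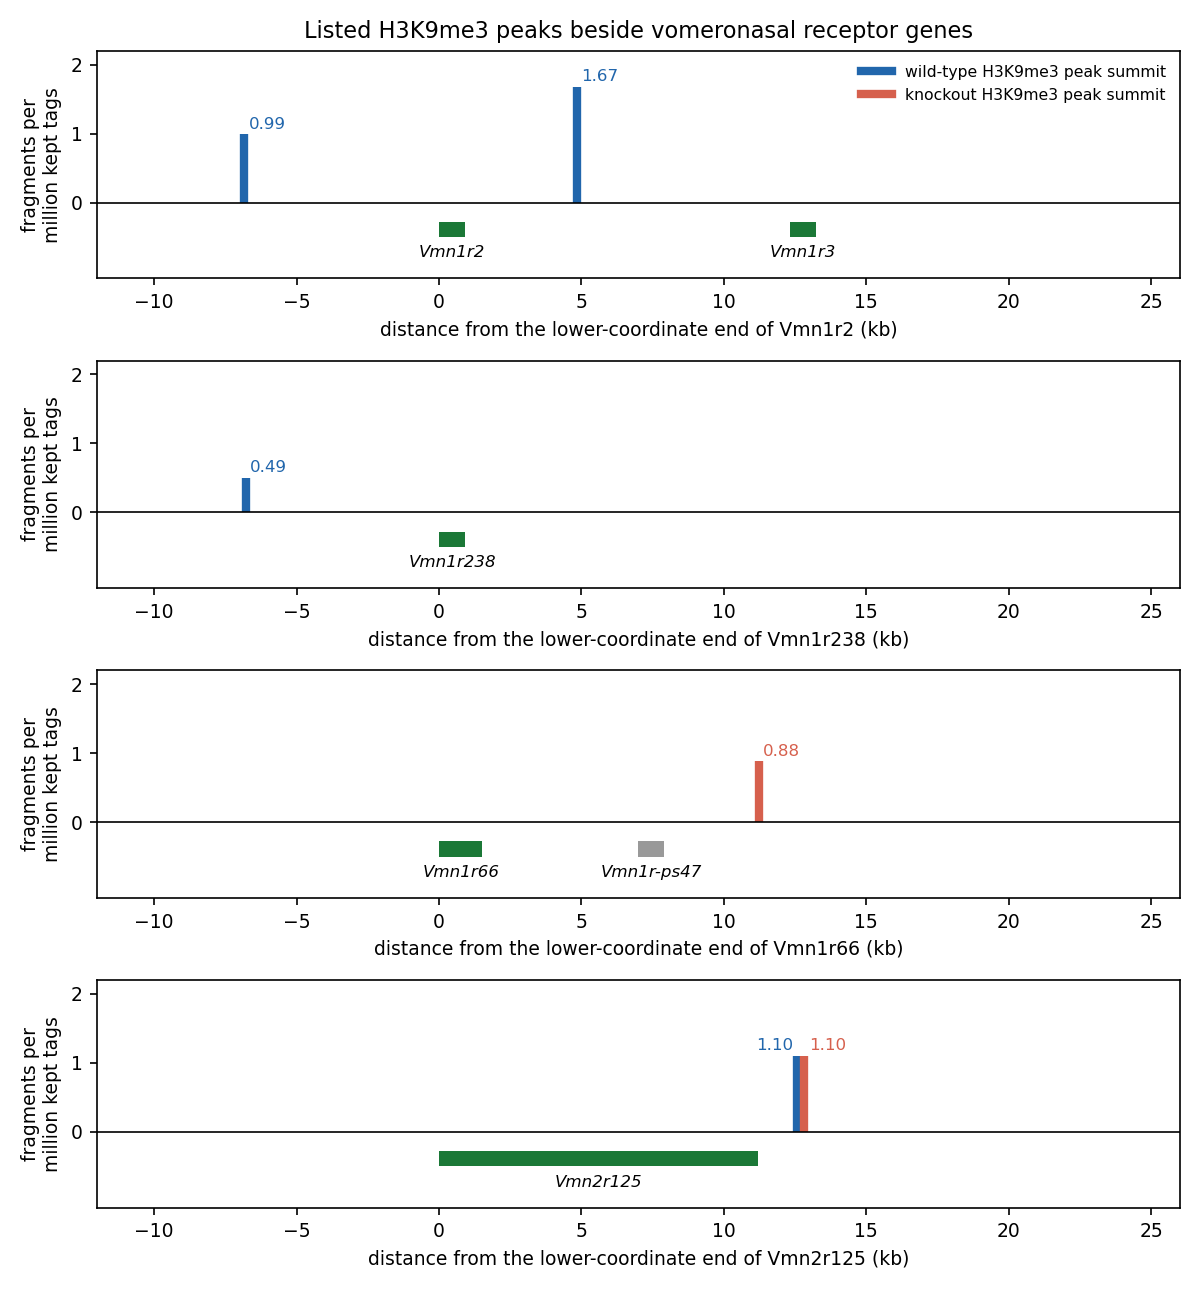
Summits of the listed H3K9me3 peaks beside the receptor genes. The horizontal axis of each panel is the distance in kb from the lower-coordinate end of the named gene, the vertical axis is the height in FPM (fragments per 1000000 kept tags), green boxes are the 5 genes and the grey box is the pseudogene Vmn1r-ps47. Blue bars (wild type) stand beside Vmn1r2, Vmn1r3 and Vmn1r238, a red bar (knockout) stands beside Vmn1r66, and both stand at Vmn2r125, drawn slightly apart because their summits are 8 bp from each other.

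Just outside the 10 kb window lay the pseudogene Vmn1r-ps48, 15367 bp from the chromosome 7 peak. The next protein-coding receptor gene was Vmn2r129, the neighbour of Vmn2r125, 17337 bp from the shared peak at the end of chromosome 4.

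The second question was how the genotypes compared at these sites. Of the 4 wild-type peaks, 3 overlapped no knockout peak, and of the 2 knockout peaks 1 overlapped no wild-type peak. Over the whole lists, 61.8% of wild-type and 28.0% of knockout H3K9me3 peaks had no overlap in the other genotype. The genes were chosen from these same lists, and nothing is read from the small counts beyond their values. A gap of up to 1000 bp between peaks, in place of an overlap, gave the same count of shared wild-type peaks.

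At Vmn2r125, the only site that could be compared by height, the depth-normalised ratio of knockout over wild type was 0.997 (0.578 to 1.72). Counting error alone therefore allows the knockout height to lie between these bounds relative to wild type. The enrichment over input was 3.97-fold in wild type and 3.34-fold in knockout, a ratio of 0.842. The recovered input background under the summit was 0.247 FPM in wild type and 0.302 in knockout, a ratio of 1.22. The equal heights and unequal folds thus go with unequal input values. Over all 66 wild-type H3K9me3 peaks that overlapped a knockout peak, the median height ratio was 0.900 and the ratios ran from 0.617 to 2.06. The median fold ratio over these 66 peaks was 0.949 and the median background ratio 0.924. The background at Vmn2r125 was thus higher in knockout, where the median over the shared peaks was lower.

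For the peaks listed in 1 genotype, the height that would have reached the lowest listed −log10 p of the other list was computed on the same background, scaled for depth. That lowest value was 5.85 in the wild-type and 6.93 in the knockout H3K9me3 list, so the needed heights rest on unlike limits. The peak between Vmn1r2 and Vmn1r3, with 1.67 FPM, would have needed 20 fragments, or 0.733 FPM, in the knockout library. The lower bound of its counting interval, 1.22, lies above that height. The second Vmn1r2 peak, at 0.989 FPM, would also have needed 0.733, which lies within its interval. The Vmn1r238 peak, with 13 fragments in wild type, would have needed 12 in knockout. An equal height per tag would have given 27.0 fragments in knockout at the second Vmn1r2 peak, where 20 were needed, and 13.5 at the Vmn1r238 peak. The knockout library kept more tags than the wild-type one, 27289192 against 26295696. Both intervals reach below the needed height, and the part of depth in these missing listings was not tested. The Vmn1r66 peak, at 0.879 FPM in knockout, would have needed 10 fragments, or 0.380 FPM, in wild type, and the lower bound of its interval was 0.563. The local background of the other genotype's input at these places is not in the lists and may differ, a region must also be about as wide as the fragment length to be listed, and a peak that passed a threshold tends to be measured too high. These needed heights are therefore rough.

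**Figure D2:**
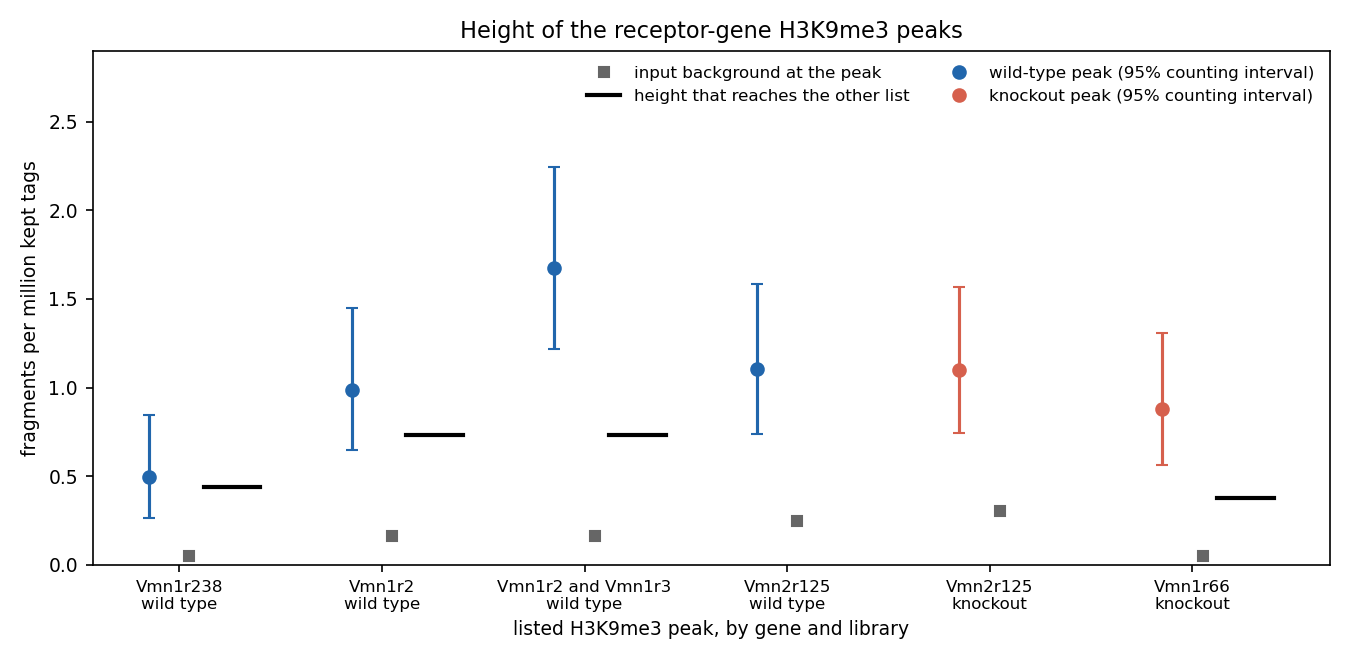
Height of the 6 receptor-gene H3K9me3 peaks in FPM, by gene and library. Points are the ChIP heights with exact 95% Poisson intervals (blue for wild type, red for knockout), and squares are the recovered input background. Black lines are the height that would reach the lowest listed −log10 p of the other genotype's list, which is not the calling cutoff itself. The intervals cover counting error in the listed library alone, so they do not show what the other library would have listed. The intervals of the peak between Vmn1r2 and Vmn1r3 and of the Vmn1r66 peak lie above their lines, and those of the second Vmn1r2 peak and the Vmn1r238 peak cross theirs.

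The receptor-gene peaks differed among themselves in how far height and enrichment went together. By fold, the Vmn1r66 peak ranked 2 of 93 in the knockout list, and the peak between Vmn1r2 and Vmn1r3 ranked 14 of 173 in the wild-type list. By height they ranked 79 of 93 and 63 of 173. At the Vmn1r66 and Vmn1r238 peaks the recovered background was the lowest value the caller assigns anywhere, 0.0519 FPM in wild type and 0.0524 in knockout, and was no local input value. Both Vmn1r2 peaks had a background of 0.165 FPM, above that lowest value. The Vmn2r125 peaks had the highest background of the 6 and the lowest folds, with ranks of 136 among 173 wild-type and 71 among 93 knockout peaks. The median height of all listed peaks was 1.14 FPM in wild type and 2.09 in knockout. The Vmn1r66 and Vmn2r125 peaks were both below the knockout median, and the peak between Vmn1r2 and Vmn1r3 was the one above the wild-type median.

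**Figure D3:**
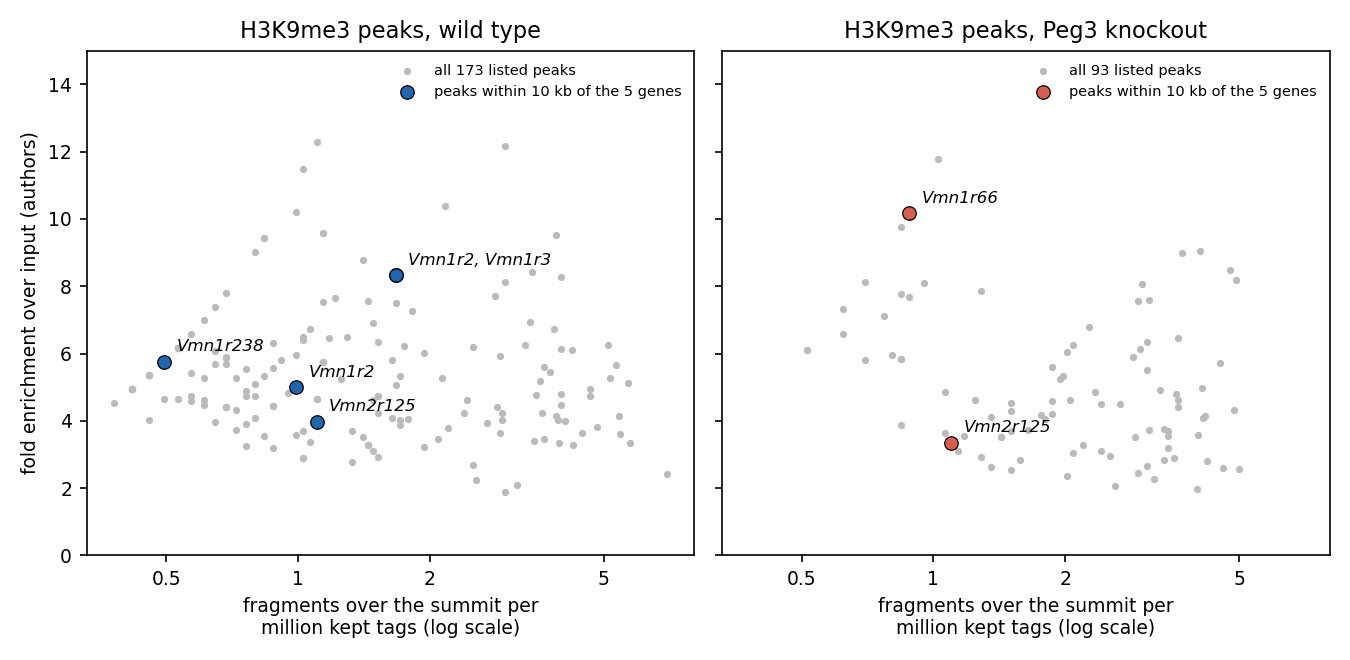
Fold enrichment over input (the authors' value) against height in FPM (log scale) for every listed H3K9me3 peak, wild type on the left and knockout on the right. Grey points are all 173 and all 93 peaks, and coloured points are those within 10 kb of the 5 receptor genes. The Vmn1r66 peak stands near the top of the knockout panel at 10.2-fold and a height of 0.879, and the Vmn2r125 peaks lie low in both panels.

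The lists of the antibody to PEG3 did not enter the selection of these genes. They were called against the same input data as the H3K9me3 lists of their genotype, so the antibodies are not fully independent. No PEG3 peak lay within 10 kb of any of the 5 genes in either genotype. None lay within 50 kb of any of the 645 genes of the family. Within 50 kb, 1.27% of all protein-coding genes had a wild-type and 0.699% a knockout PEG3 peak. Among all protein-coding genes 0.644% had a wild-type and 0.347% a knockout PEG3 peak within 10 kb, and the count of 0 among 5 genes is to be read against these low shares. The closest PEG3 peaks to the 5 genes were those near Vmn1r238, 3393 kb away in wild type and 4486 kb in knockout, and those near Vmn1r66, 3542 kb away in wild type and 3541 kb in knockout, next to the Peg3 gene. For the 3 genes on chromosome 4 the nearest wild-type PEG3 peak was between 37796 and 39868 kb away, and the knockout list held none on that chromosome. None of the 6 H3K9me3 peaks overlapped a PEG3 peak.

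Position along the chromosome was a property the selection did not use. Vmn1r2 and Vmn1r3 were the first and the second protein-coding gene of chromosome 4, Vmn1r238 was the first of chromosome 18, and Vmn2r125 was the last annotated gene of chromosome 4. These 4 genes lay within 200 kb of the first or last annotated gene boundary of their chromosome, and Vmn1r66 lay 7176391 bp from the nearer one. Of all protein-coding genes placed on chromosomes 0.427% lay within 200 kb of such a boundary, and of the protein-coding receptor genes 2.56%, or 9 of 352. The H3K9me3 peaks of the whole lists were often there as well, with 36 of 173 wild-type peaks (20.8%) and 23 of 93 knockout peaks (24.7%). For PEG3 the shares were 3.29% of wild-type and 25.2% of knockout peaks. The genes were chosen for being close to an H3K9me3 peak, and the H3K9me3 peaks lie near these boundaries, so the position of the 4 genes is not separate evidence. The 200 kb distance was chosen after the positions were seen. Within 1000 kb the count of the 5 genes was again 4. The shares there were 2.32% of protein-coding genes and 2.56% (again 9 of 352) of the protein-coding receptor genes. At this distance the family's share was thus close to that of all protein-coding genes. Of wild-type and knockout H3K9me3 peaks, 30.6% and 37.6% lay within 1000 kb.

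Vmn1r2, Vmn1r3 and Vmn1r238 also share an annotated length of 921 bp, a length found in 21 of the 231 protein-coding Vmn1r genes, these 3 included. Each had a wild-type peak summit on its lower-coordinate side at a similar distance, 6835 bp for Vmn1r2, 7448 bp for Vmn1r3 (the peak it shares with Vmn1r2) and 6776 bp for Vmn1r238. The highest Vmn1r2 peak lay on its higher-coordinate side, with the summit 3934 bp away. The gene annotation used gives no strand, so the lower-coordinate side need not be the same side of each gene. Whether these stretches are copies of one another was not tested. How reads with several matches were treated is not given in the sources used here, and counts at near-identical copies would be uncertain for that reason. None of the 5 genes has an entry in the RefSeq promoter table used here, and no sequence is shown.

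The whole receptor family was then set beside all genes. Within 10 kb, 4 of 355 protein-coding receptor genes (1.13%) had an H3K9me3 peak in either genotype, against 0.269% of all 21900 protein-coding genes. These 4 genes are the protein-coding genes that the same peaks had selected, so the shares are a description and no separate evidence. The 4 genes rest on 4 peaks at 3 places, and the genes that share a cluster are not independent. By genotype, 3 of the 355 (Vmn1r2, Vmn1r3 and Vmn1r238) had a wild-type peak and 1 (Vmn1r66) a knockout peak, against 0.247% and 0.128% of all protein-coding genes. The share depended on the distance. In the gene body it was 0 of 355 (all protein-coding genes 0.142%), within 5 kb 0.282% (0.205%), within 20 kb 1.41% (0.352%) and within 50 kb 1.69% (0.521%).

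Among the 290 receptor pseudogenes, 4 had an H3K9me3 peak within 10 kb, or 1.38%. They were Vmn2r125, Vmn1r-ps47, Vmn2r-ps16 and Vmn1r-ps60. By genotype, 3 had a wild-type and 3 a knockout peak, or 1.03% each. The share of all protein-coding genes was 0.269% in either genotype. The share over pseudogenes of all families was not computed, so whether 1.38% is unusual for pseudogenes cannot be said. The wild-type peak in Vmn2r-ps16 (chromosome 4, 146480908 to 146481085) was the one peak inside the body of any family gene. It had 13 fragments and a 4.64-fold enrichment, and no knockout peak overlapped it. The annotated body of Vmn2r-ps16 runs from 146445134 to 146605510, far longer than the 11196 bp of Vmn2r125, so it has more room to hold a peak. The peaks near Vmn1r-ps60 (chromosome 7, wild type 12010390 to 12010829) were shared, with 51 fragments in wild type and 55 in knockout. Their depth-normalised ratio was 1.04 (0.697 to 1.55), and the folds were 3.21 and 2.36. At both shared sites of the family within 10 kb of a gene, the heights were thus close and the folds lower in knockout. No counting interval was computed for the folds.

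**Figure D4:**
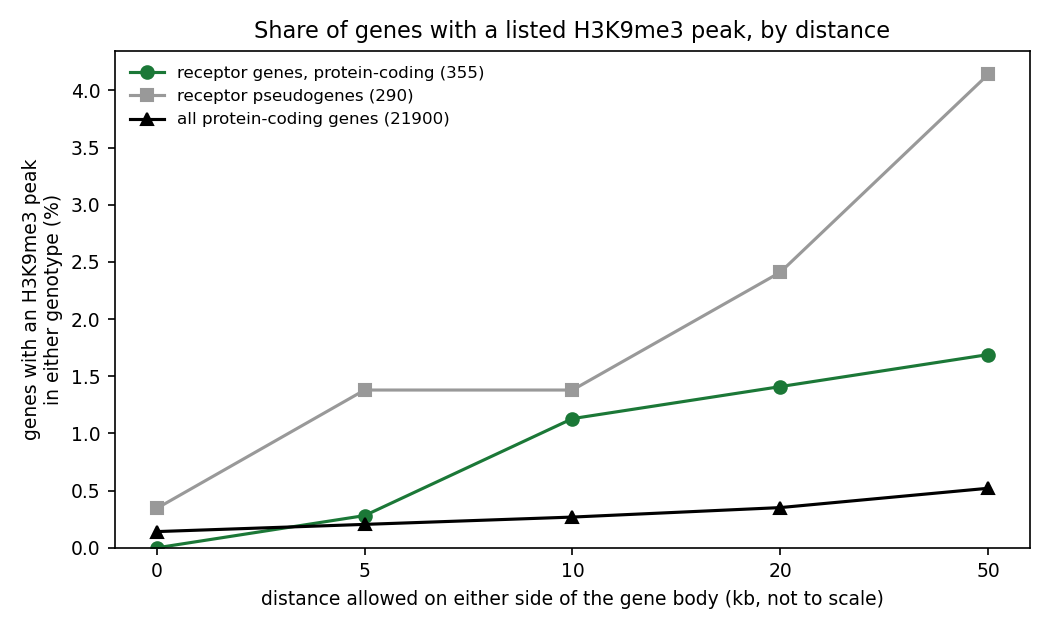
Share of genes (percent) with a listed H3K9me3 peak in either genotype, against the distance allowed on either side of the gene body (kb, categories not to scale). Green circles are the 355 protein-coding receptor genes, grey squares the 290 receptor pseudogenes and black triangles all 21900 protein-coding genes. The receptor genes start at 0 in the gene body and reach 1.13% at 10 kb, where all protein-coding genes stand at 0.269%. The protein-coding receptor genes counted at 10 kb are those that these same peaks had selected.

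Other gene groups gave few or no peaks within 10 kb, which is to be read against the shares of all protein-coding genes, 0.247% (wild type) and 0.128% (knockout) for H3K9me3 and 0.644% and 0.347% for PEG3. At such shares a count of 0 in a list of 4 to 26 genes carries little information. None of 1132 protein-coding olfactory receptor, trace amine-associated receptor and formyl peptide receptor genes had a peak in any of the 4 lists. Of 16 genes of vomeronasal signalling or vomeronasal neuron identity, such as the channel gene Trpc2 and the G protein genes Gnao1 and Gnai2, none had an H3K9me3 peak. Ano2, which encodes a calcium-activated chloride channel, was the one with a PEG3 peak, 41 fragments (1.92 FPM) in wild type and 58 (3.41 FPM) in knockout. Of 26 genes for the placing, reading or removal of H3K9me3, with Peg3 included in the list, Peg3 alone had a listed peak of either antibody. Its 2 H3K9me3 peaks were in wild type, the higher with 14 fragments. None of 8 fibroblast marker genes, such as Col1a1 and Pdgfra, had a peak in any list. None of 4 vomeronasal neuron markers had one either, so the lists do not bear on which cell type was sampled.

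The genes most like the receptor genes were sought among protein-coding genes listed in the same libraries, by the height of their highest H3K9me3 peak within 10 kb. The measure is the summed absolute log2 difference in FPM over the 1 or 2 libraries in which the gene was listed. For Vmn1r2 and Vmn1r3, which share their highest peak, the nearest of the others was Mid1, a ubiquitin ligase gene (a difference of 0.10, 47 fragments). For Vmn1r238 they were Cdk14 and Luc7l (both 0.00, with 13 fragments each) and Ahnak2 (0.11). For Vmn1r66 they were Srsf4, a splicing factor gene (0.27), Gm10354 (0.54) and Dcdc2a (0.78), out of 4 candidates. For Vmn2r125, listed in both genotypes, they were Gm525 (0.10), Rab44 (0.37) and Mogat1 (0.59), out of 10.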

How the data were processed

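The authors' peak tables of 4 ChIP samples were used. The 4 input samples are 2 raw data sets, each listed for both antibodies, per the labels. The submitters' processing notes name Bowtie2, SAMtools and the mm10 build, with versions not given in the sources used here. The authors called peaks per sample (MACS2 2.2.6, q cutoff 0.05), keeping 1 tag per position and scaling the larger of ChIP and input down, per the file headers. The deposited values are the pileup signal at the summit, the fold enrichment (a ratio over local input with 1 added to both) and −log10 p and q, whose column names were lost. Recomputing −log10 p from pileup and fold with a Poisson distribution differed by at most 0.00335 over 581 peaks, and −log10 q was below −log10 p in all.

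Here, pileups were divided by the ChIP scale, which gave whole fragments (within 0.00537), and by kept tags. Kept tags ranged from 16986250 to 27289192. Input background was recovered from the fold. Peaks were shared when they overlapped by at least 1 bp. Ratios have exact conditional intervals and heights exact Poisson intervals (95%). No test between genotypes was made, as each group has 1 library. Genes were placed with RefSeq's GRCm38.p6 table, which is of the mm10 build (49997 genes with a position). In it 10 family genes have scaffold coordinates. Named genes were the 5 genes with all their peaks, other family members with a peak within 10 kb, and the 3 most similar genes by height, of which 1 is not reported here. The genes and lists were chosen with earlier results of these data known. The functions for distances, overlaps and intervals were checked on simulated lists, where 200 of 200 planted distances were recovered. Alternatives covered distance, q, overlap, merging and the measure of height. Measuring from the summit, leaving out Vmn2r125 and leaving out scaffold genes were chosen after seeing the data. Software was SciPy 1.17.1, pandas 2.3.3, NumPy 2.4.6 and matplotlib 3.10.9 under Python 3.11.15.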

Additional observations from a re-analysis of the deposited data

How the results depend on the processing

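The counts rested on the 10 kb window. With the gene body alone the receptor genes had 0 wild-type and 0 knockout H3K9me3 peaks, and 0 protein-coding family genes had one. Within 5 kb the numbers were 2 wild-type peaks, 1 knockout peak and 1 protein-coding family gene. With protein-coding genes alone, without Vmn2r125, the knockout list gave 1 peak. With pseudogenes included, the family count was 8. The other 38 of 46 alternatives left their count within 1.5 times, or the Vmn2r125 height ratio within its counting interval (0.842 by the authors' fold, 0.987 with the fragment length divided out, 1.05 with the pileup as deposited). They include the PEG3 counts of 0, which a stricter setting could not change, so this tally does not measure how stable the H3K9me3 counts are. The number of shared receptor peaks was 1 under every overlap rule and the stricter q that were run. No paired analysis was possible because each group has 1 library, and no replicate could be left out. Depth limits the comparison most at Vmn1r238, with 13 fragments.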

Other observations

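Beyond the 10 kb window, the start of chromosome 4 held more short H3K9me3 peaks on the far side of the pseudogene Vmn1r-ps2 from Vmn1r2. A shared peak at 3067867 to 3068041 in wild type lay 35658 bp from Vmn1r-ps2, with 14 fragments in wild type and 17 in knockout (depth-normalised ratio 1.17, 0.543 to 2.56). Here the fold was higher in knockout, 7.33 against 4.65, the opposite order to Vmn2r125 and Vmn1r-ps60. Wild type alone listed peaks at 3083403 (24 fragments, 5.80-fold) and 3084039 (11 fragments, 4.94-fold), and knockout alone listed one at 3081268 (14 fragments, 6.11-fold). The absence of knockout peaks around Vmn1r2 and Vmn1r3 did not therefore extend to the first peaks of the chromosome. A wild-type peak with 18 fragments lay 26851 bp from Vmn2r-ps19 on chromosome 4, and no knockout peak overlapped it.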
